A study of Mus musculus with 2 samples.

Results

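Both arms of the miR-21a, miR-221 and miR-222 hairpins were examined in the small RNA of serum extracellular vesicles (EVs), which are membrane-bound particles shed by cells. The members were chosen by name, and all 6 were found among the 1847 mature mouse miRNAs listed in each of 2 libraries. The library labelled iFIRKO came from male mice with the genotype Adipoq-CreERT2; Insr flox/flox, in which tamoxifen activates a Cre recombinase made under the adiponectin promoter, so that the insulin receptor gene is deleted in adipocytes. The library labelled control came from male mice given as WT in the labels, whereas the methods of the study describe floxed mice without Cre. Mice of both groups were 7 weeks old, received 100 mg/kg tamoxifen on each of 5 days and were sampled on day 3 after the last dose. Each library was made from serum pooled from several mice, and each group had 1 library, so no replicate error could be measured and every interval below covers counting error only. No miRNA shows whether the receptor gene was deleted, and the names control library and iFIRKO library below follow the labels as given. The direction of the contrast under these labels is opposite to the one the study describes for its serum EVs. The study followed up miR-144-3p and miR-486a-3p as increased in iFIRKO mice. Their deposited values in the iFIRKO library were 0.506 and 0.549 of those in the control library. The labels of the 2 libraries may be exchanged, or the values may be scaled differently. Neither was tested. An exchange would invert every ratio.

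A miRNA hairpin is cut by Dicer into a duplex of a 5p and a 3p arm. Usually the arm loaded into an Argonaute protein is retained and the passenger arm is degraded. Bases 2 to 8 of the loaded arm, the seed, pair with target mRNAs and lower their translation and stability. miR-21 is abundant in stromal, vascular and immune cells, is induced in injury, fibrosis and many tumours, and represses Pdcd4. miR-221 and miR-222 are encoded side by side on the X chromosome, are abundant in endothelial and vascular smooth muscle cells, and repress the receptor Kit and the cell cycle inhibitor Cdkn1b.

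The mature sequences are shown because the abundant 3p arms of miR-221 and miR-222 share a seed and because miR-21a-5p has near copies. They were taken from RefSeq (GRCm38.p6), where 5 of the 6 members were matched. Each is written 5′ to 3′ with the seed in capitals, and the mouse prefix mmu- is left out elsewhere.
mmu-miR-21a-5p: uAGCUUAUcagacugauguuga
mmu-miR-21a-3p: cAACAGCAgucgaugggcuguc
mmu-miR-221-3p: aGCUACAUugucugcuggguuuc
mmu-miR-222-3p: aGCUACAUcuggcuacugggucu
mmu-miR-221-5p: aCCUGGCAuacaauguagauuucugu
mmu-miR-21c: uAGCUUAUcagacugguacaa
mmu-miR-21b: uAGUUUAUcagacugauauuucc
mmu-miR-1928: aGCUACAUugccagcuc
Counted from 1 at the 5′ end, miR-221-3p and miR-222-3p were identical from base 1 to base 8 and differed at 12 of 23 positions, the first being U9C (the base of miR-221-3p is given first). Of the complementary letters that a target would carry, AUGUAGC pairs with the seed of both and AUAAGCU with the seed of miR-21a-5p. mmu-miR-222-5p is named only.

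Mir21a, the hairpin of miR-21a, lies at chr11:86584067-86584158 on the minus strand (GRCm38) and overlaps an untranslated exon of 1 protein-coding transcript of Vmp1 on the same strand. Mir221 lies at chrX:19146294-19146388 and Mir222 at chrX:19146893-19146971, both on the minus strand. The 2 hairpins are 504 bases apart and overlap no other gene in the GENCODE annotation. The submitters' processing notes name mm10, which is the same build.

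The deposited values are whole counts divided by the depth of the library, which was 3817902 for the control library and 2233498 for the iFIRKO library. Values are given as these counts and as counts per 1000000 of the depth (CPM). No member was at the lowest level of either table, which stands for fewer than 10 counts.

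The abundance of the 6 members spanned a wide range, with 1 dominant arm for each hairpin. miR-21a-5p, the arm retained from miR-21a, had 60020 counts in the control library and 37512 in the iFIRKO library (15721 and 16795 CPM), and ranked 15 and 12 among all miRNAs. miR-221-3p, the retained arm of miR-221, had 10253 counts (2686 CPM) and 5774 counts (2585 CPM), and ranked 47 and 46. miR-222-3p, its seed partner from the neighbouring hairpin, had 1293 counts (339 CPM) and 607 counts (272 CPM), and ranked 118 and 132. The order miR-21a-5p, miR-221-3p, miR-222-3p was therefore the same in both libraries, with 95% Wilson intervals that did not overlap between neighbours.

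The other 3 arms were far lower. The passenger arm miR-21a-3p had 123 counts (32.2 CPM, 95% interval 27.0 to 38.4) in the control library and 72 counts (32.2 CPM, 25.6 to 40.6) in the iFIRKO library. miR-222-5p had 91 counts (23.8 CPM, 19.4 to 29.3) and 74 counts (33.1 CPM, 26.4 to 41.6). miR-221-5p had 47 counts in each library, which is 12.3 CPM (9.26 to 16.4) and 21.0 CPM (15.8 to 28.0) because the depths differ. Of the counts of miR-21a-3p and miR-222-5p together, miR-21a-3p held 57.5% (95% Wilson interval 50.8 to 63.9) in the control library, and 49.3% (41.3 to 57.3) in the iFIRKO library, where the interval includes equal counts. All 6 members together made up 1.88% of the control library (95% interval 1.87 to 1.90) and 1.97% of the iFIRKO library (1.96 to 1.99). miR-21a-5p alone held 83.6% and 85.1% of the member counts.

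**Figure D1:**
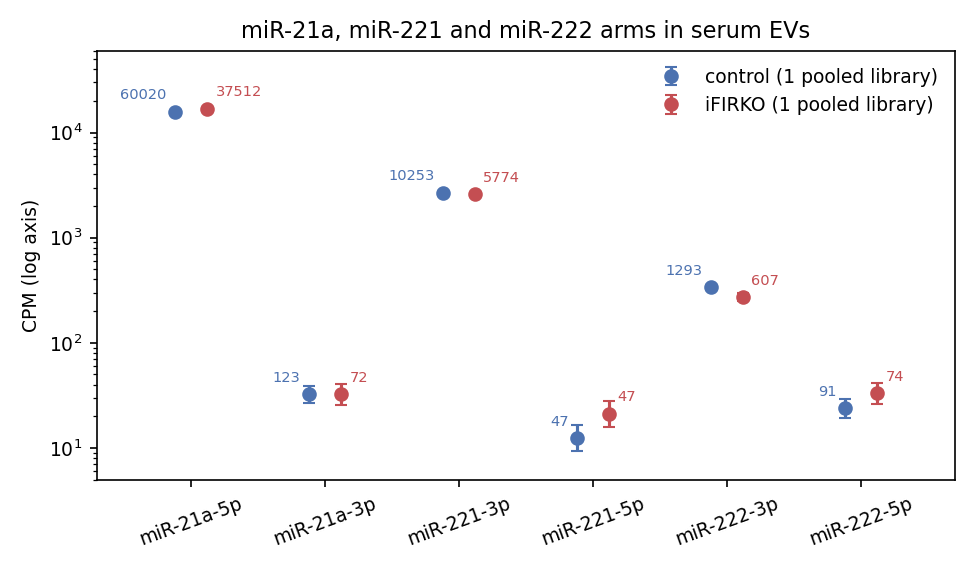
Level of each member in CPM (log axis) in the control and iFIRKO libraries, 1 pooled library each, with recovered counts printed beside the points and 95% Wilson intervals as bars. On the deposited scale miR-21a-5p (15721 and 16795 CPM) and miR-221-3p (2686 and 2585 CPM) differ little between the libraries. miR-222-3p is at 339 and 272 CPM, and the 3 passenger arms lie between 12.3 and 33.1 CPM.

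To compare the libraries, the ratio of iFIRKO to control was taken on the deposited scale, with an exact binomial (Clopper-Pearson) 95% interval for how both counts were divided. On this scale 1 of the 6 members passed 1.5-fold, against 69.4% of all 1847 miRNAs. This member, miR-221-5p, was over 1.5-fold higher in the iFIRKO library, as were 66.3% of all miRNAs. None was over 1.5-fold lower, against 3.03% of all miRNAs. At any size, 4 members were higher and 2 were lower. One of the higher members, miR-21a-3p, had a ratio of 1.001, with an interval of 0.737 to 1.35 that includes no difference. Of all miRNAs, 88.1% were higher under the labels as given, and these would be the lower ones with the labels exchanged. With miR-148a-3p as reference or with the median of ratios, 2 members were higher and 4 were lower. The median of ratios was taken over miRNAs above the lowest level in both libraries with a mean count of at least 100. The median log2 ratio was 0.048 over the members and 0.88 over all miRNAs. Every member, up to miR-221-5p at 0.77, was below the median over all miRNAs. By Fisher's exact test, two-sided with Benjamini-Hochberg adjustment, which compares these 2 libraries and not the genotypes, 4 members had an adjusted p-value under 0.05 (miR-21a-5p and miR-221-5p higher, miR-221-3p and miR-222-3p lower), and 65.3% of the 1736 miRNAs tested did.

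Of the abundant arms, miR-21a-5p and miR-221-3p lay close to a ratio of 1 on the deposited scale. The ratio was 1.07 (95% interval 1.05 to 1.08) for miR-21a-5p and 0.963 (0.932 to 0.994) for miR-221-3p. miR-222-3p had the lowest ratio of the members, 0.802 (0.727 to 0.884). With the labels exchanged the 3 ratios would be 0.936, 1.04 and 1.25 in the same order. The intervals do not overlap each other, but the direction of miR-21a-5p depended on the scaling, being lower with miR-148a-3p as reference, with the median of ratios and with TMM factors, and that of miR-221-3p turned to higher when the liver and erythroid miRNAs described below were left out of the depth. miR-222-3p was lower under each scaling tried.

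The passenger arms had few counts and wide intervals. The ratio of miR-221-5p was 1.71 (1.12 to 2.62), which with equal counts is the ratio of the depths. miR-222-5p had a ratio of 1.39 (1.01 to 1.91). miR-21a-3p had a ratio of 1.001 (0.737 to 1.35), so that neither a difference nor its absence within these limits could be shown at this depth. With TMM factors all 6 members were lower.

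Because low miRNAs had higher ratios across the tables, each member was set beside miRNAs of its own abundance. Among the 118 miRNAs with a mean count over 1000, the median log2 ratio was -0.070. miR-21a-5p exceeded 80 of the other 117 of them, and miR-221-3p exceeded 60. In the class with a mean count from 100 to 1000, which has 302 miRNAs and a median log2 ratio of 0.53, miR-222-3p at -0.32 exceeded only 22 of the other 301. In the class from 10 to 100, which has 1350 miRNAs and a median log2 ratio of 1.01, miR-221-5p at 0.77 exceeded 481 of the other 1349, miR-222-5p at 0.48 exceeded 239 and miR-21a-3p at 0.00 exceeded 52. The place of miR-222-3p depended on the class limit, as its mean count was 950. Among the 75 other miRNAs within 2-fold of that count, a range chosen after the data were seen, the median log2 ratio was 0.059 and miR-222-3p exceeded 22. By the same measure miR-21a-3p exceeded 33 of 554 others, and miR-221-5p, the only member past 1.5-fold, exceeded 331 of 960. Thus miR-21a-3p was near the low end of miRNAs of its abundance. miR-221-5p was below the median of its class, 1.01, but its log2 counting interval of 0.16 to 1.39 includes that median. A scaling moves a member and its class alike and does not change these ranks.

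**Figure D2:**
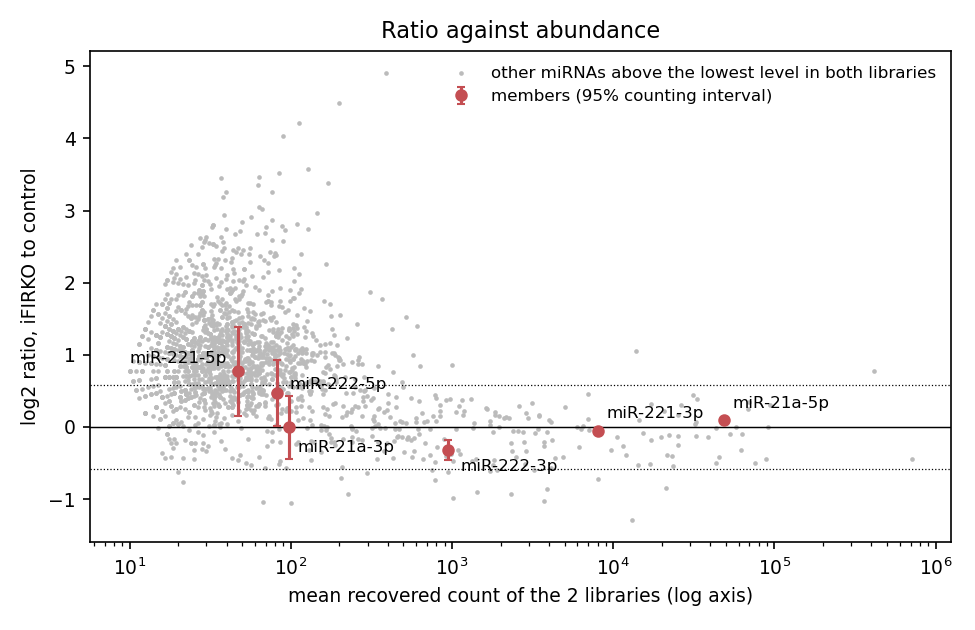
Log2 ratio of iFIRKO to control against the mean recovered count (log axis) for the 6 members, with 95% counting intervals, and for the other miRNAs above the lowest level in both libraries (grey). Dotted lines mark 1.5-fold. At low counts miR-21a-3p (0.00) and miR-222-5p (0.48) lie on the lower side of the cloud, and miR-221-5p (0.77) lies nearer its middle. At high counts miR-21a-5p (0.095) and miR-221-3p (-0.055) lie close to 0, and miR-222-3p is at -0.32.

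Next, the balance of the arms was compared, since a ratio within a library does not depend on how the libraries are scaled. In miR-21a, the 5p arm had 488 counts for each count of the 3p arm in the control library and 521 in the iFIRKO library, a change of 1.07-fold with an exact conditional interval of 0.792 to 1.45. In miR-221 the 5p arm made up 0.456% of the counts of both arms (95% Wilson interval 0.343 to 0.606) in the control library and 0.807% (0.608 to 1.07) in the iFIRKO library, a 1.78-fold higher 5p to 3p ratio (1.16 to 2.72). In miR-222 the 5p arm made up 6.58% (5.39 to 8.005) and 10.9% (8.74 to 13.4), a 1.73-fold higher ratio (1.24 to 2.42). The passenger arms of miR-221 and miR-222 thus held a larger share of their hairpins in the iFIRKO library, beyond counting error, and for miR-21a the interval included no change.

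Such changes were common in these tables. The 5p to 3p ratio changed over 1.5-fold in 2 of the 3 hairpins and in 44.2% of all 617 hairpins with both arms above the lowest level. Among the 59 hairpins with a minor arm under a mean count of 100 and a major arm of at least 500, limits chosen after the data were seen to match the 3 hairpins, the ratio of the minor to the major arm was over 1.5-fold higher in 62.7%, with a median log2 change of 0.76. The log2 change was 0.83 for miR-221, above 35 of the 58 others, and 0.79 for miR-222, above 31 of the 58 others. For miR-21a it was -0.094, above 5 of the 58 others. miR-221 and miR-222 therefore lay in the middle of comparable hairpins and miR-21a near their low end.

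**Figure D3:**
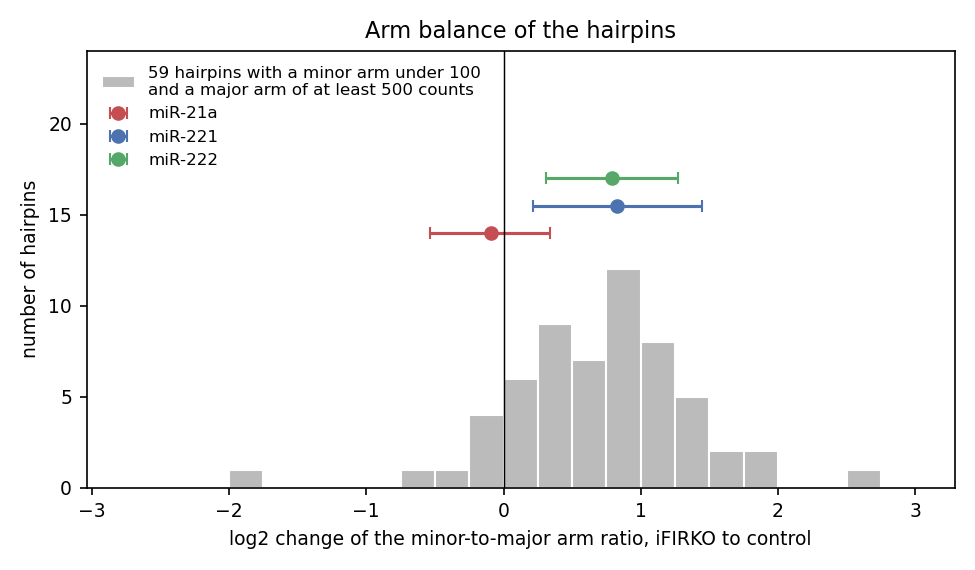
Log2 change of the minor-to-major arm ratio between the libraries for 59 hairpins of comparable abundance, the 3 hairpins included (grey bars, number of hairpins), and for miR-21a, miR-221 and miR-222 (points placed at arbitrary heights, bars are exact 95% counting intervals). miR-221 at 0.83 and miR-222 at 0.79 lie near the median of 0.76, and miR-21a at -0.094 lies near the low end.

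miR-221 and miR-222 come from neighbouring hairpins, and their 3p arms were compared with each other within each library. There were 7.93 counts of miR-221-3p for each count of miR-222-3p in the control library and 9.51 in the iFIRKO library, a change of 1.20-fold (exact conditional interval 1.08 to 1.33). The passenger arms gave 0.516 and 0.635 counts of miR-221-5p for each count of miR-222-5p, a change of 1.23-fold with an interval of 0.717 to 2.11 that includes 1. For background, pairs of the same arm from other hairpins within 1000 bases on the same strand, each over a mean count limit of 500, were collected after the data were seen. In 9 of these 12 other pairs the partners were closer in log2 ratio than miR-221-3p and miR-222-3p, whose log2 ratios were 0.26 apart, and the median distance was 0.19. The pair was thus apart by more than counting error, and 3 other neighbouring pairs were farther apart. Several of these pairs share a cluster and are not independent.

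Summed over the listed miRNAs that share it and were matched in RefSeq, the seed GCUACAU had 11599 counts (3038 CPM) in the control library and 6406 counts (2868 CPM) in the iFIRKO library, a ratio of 0.944 (95% interval 0.916 to 0.973) on the deposited scale. Its log2 ratio, -0.083, is smaller in size than the 0.12 by which leaving the liver and erythroid miRNAs out of the depth raises every value. The direction of this sum therefore depends on the scaling. miR-221-3p supplied 88.4% and 90.1% of this sum and miR-222-3p 11.1% and 9.48%. The remaining miRNA with this seed, miR-1928, had 53 and 25 counts. The seed AGCUUAU had 60140 and 37561 counts, of which miR-21a-5p supplied 99.8% and 99.9%. The rest of this sum was miR-21c, with 120 and 49 counts. miR-590-5p was not matched and is not in the sum. No other miRNA in the RefSeq table used shared the seed of miR-21a-3p or of miR-221-5p.

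miR-21c and miR-21b resemble miR-21a-5p closely enough that reads could be divided between them, and how the authors assigned such reads is not given in the sources used here. Without gaps, miR-21c was identical to miR-21a-5p from base 1 to base 15 and differed at 5 of 21 positions, the first being A16G. miR-21b differed at 4 of 22 positions, of which C4U lies in the seed. miR-21b had 145 and 72 counts, a ratio of 0.849 (0.631 to 1.13), and miR-21c had a ratio of 0.698 (0.490 to 0.981). At 0.242% and 0.192% of the miR-21a-5p count for miR-21b, and 0.200% and 0.131% for miR-21c, moving all their counts would leave the level of miR-21a-5p almost as given, while their own values are uncertain.

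As miR-21, miR-221 and miR-222 are known from vascular and stromal cells, markers of these cells were set beside them. Serum EVs have no defining miRNA of a single cell type, and every marker listed here was above the lowest level in both libraries. Both arms of the endothelial miR-126a were lower in the iFIRKO library, with ratios of 0.710 (0.702 to 0.718) for miR-126a-3p and 0.684 (0.671 to 0.698) for miR-126a-5p. All 4 arms of the smooth muscle miR-143 and miR-145a were lower, with log2 ratios from -1.05 to -0.20. The 5 mesenchymal stromal miRNAs of miR-199 and miR-214 were higher in 4 cases and lower in 1, with log2 ratios from -0.28 to 0.61. Of these, miR-199b-5p, miR-214-3p and miR-214-5p, at 0.45, 0.47 and 0.61, had a mean count from 100 to 1000, as had miR-199a-5p at -0.28. The median log2 ratio over all miRNAs of that class was 0.53. The leading marker of each list was miR-126a-3p, miR-143-3p with a ratio of 0.762 (0.747 to 0.778), and miR-199a-3p (a row shared with miR-199b-3p) with a ratio of 1.03 (1.01 to 1.04). Among these leading markers only, miR-21a-5p and miR-221-3p were nearest in ratio to miR-199a-3p, and miR-222-3p was nearest to miR-143-3p. Leukocyte markers were closer for the latter pair of arms, with log2 ratios of -0.054 for miR-142a-5p (miR-221-3p: -0.055) and -0.32 for miR-223-3p (miR-222-3p: -0.32).

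These comparisons were repeated within each library against the most abundant marker of each list. Relative to miR-126a-3p, miR-21a-5p was 1.505-fold higher in the iFIRKO library than in the control library (exact conditional interval 1.48 to 1.53), miR-221-3p was 1.36-fold higher (1.31 to 1.40) and miR-222-3p was 1.13-fold higher (1.02 to 1.25). Relative to the smooth muscle miR-143-3p, the changes were 1.40-fold (1.37 to 1.44) for miR-21a-5p and 1.26-fold (1.22 to 1.31) for miR-221-3p, while that of miR-222-3p, 1.05-fold (0.953 to 1.16), included 1. Relative to miR-199a-3p, the changes were 1.04-fold (1.02 to 1.06) for miR-21a-5p, 0.937-fold (0.904 to 0.971) for miR-221-3p and 0.781-fold (0.707 to 0.862) for miR-222-3p. All 3 abundant arms were thus higher relative to the endothelial marker, whereas against the stromal marker miR-21a-5p was slightly higher and the other 2 were lower. These 9 ratios are free of scaling, were chosen after the data were seen, and concern single pooled libraries.

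Markers of other cells that shed RNA into serum also differed between the libraries. The 7 erythroid miRNAs (the arms of miR-144, miR-486a and miR-486b, and miR-451a) were all lower under the labels as given, and would be higher with the labels exchanged, at 4.75% and 3.22% of the depth in the control and iFIRKO libraries, with a median log2 ratio of -0.86. The 4 liver miRNAs (the arms of miR-122, miR-192-5p and miR-194-5p) were all higher on the deposited scale, at 12.1% and 20.2% of the depth and a median of 0.45 that turned negative with TMM factors. The 6 leukocyte miRNAs were all lower, with a median of -0.14. The 5 adipocyte miRNAs had a median of -0.16, with 2 higher and 3 lower. Their sum went the other way, at 0.201% and 0.225% of the depth, a ratio of 1.12 (1.08 to 1.16). The most abundant of them, miR-378a-3p, had a ratio of 1.21. Leaving the liver and erythroid lists out of the depth, an alternative chosen after the data were seen, raised every member by 0.12 on the log2 scale, to 0.21 for miR-21a-5p, 0.064 for miR-221-3p and -0.20 for miR-222-3p. The part of these cell types in the member values was not tested.

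**Figure D4:**
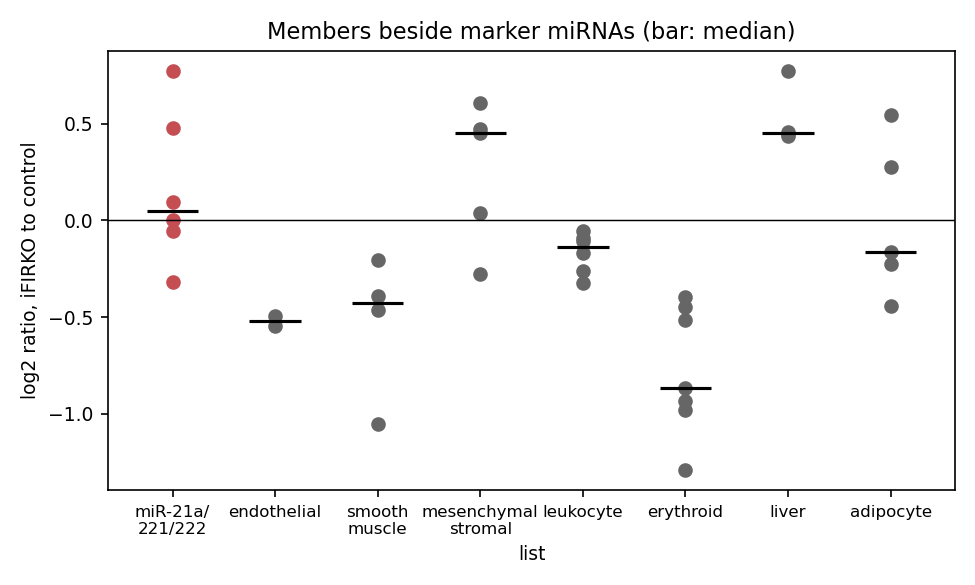
Log2 ratio of iFIRKO to control for the 6 members (left, red) and for each marker miRNA of 7 lists (grey), with a bar at the median of each. The median of the members, which mix abundant and passenger arms, is 0.048. The list medians nearest to it are those of the leukocyte list at -0.14 and the adipocyte list at -0.16. The endothelial list is at -0.52 and the mesenchymal stromal list at 0.45. The most abundant stromal row, miR-199a-3p, is at 0.039, and the ratio of the summed stromal list is 1.03.

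The study used miR-148a-3p, picked from its sequencing data, or a spike-in as reference in its RT-PCR of serum samples. Here miR-148a-3p had 24524 and 16705 counts and a ratio of 1.16 (1.14 to 1.19) on the deposited scale. Relative to miR-148a-3p, the 3 abundant arms were all lower in the iFIRKO library. The change was 0.918-fold (exact conditional interval 0.896 to 0.939) for miR-21a-5p, 0.827-fold (0.796 to 0.859) for miR-221-3p and 0.689-fold (0.624 to 0.761) for miR-222-3p. The intervals of the 3 passenger arms, with changes of 0.859-fold for miR-21a-3p, 1.47-fold for miR-221-5p and 1.19-fold for miR-222-5p, all included 1. The order of the 6 members by ratio, from miR-221-5p down to miR-222-3p, is the same under any scaling, and only the place of a ratio of 1 within it moves.

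**Figure D5:**
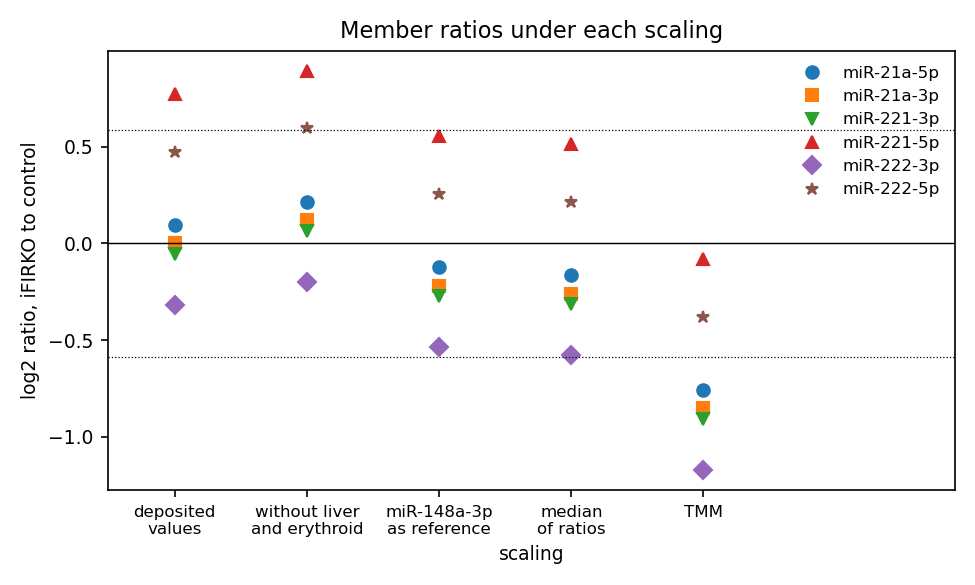
Log2 ratio of iFIRKO to control for each member under the deposited values and 4 other scalings, with dotted lines at 1.5-fold. The members keep their order and shift together, from 0.77 for miR-221-5p and -0.32 for miR-222-3p on the deposited scale to -0.081 and -1.17 with TMM factors.

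Finally, the miRNAs whose log2 ratio was nearest to that of each abundant arm were sought among the 116 others whose mean count reached 1000. With 2 libraries this likeness is a difference of a single ratio. For miR-21a-5p at 0.095 they were miR-92a-3p (0.096), miR-152-3p (0.096) and miR-101b-3p (0.11). For miR-221-3p at -0.055 they were miR-142a-5p (-0.054), miR-361-5p (-0.051) and miR-351-5p (-0.070). For miR-222-3p at -0.32 they were miR-27a-3p (-0.32), miR-223-3p (-0.32) and miR-141-3p (-0.33). Of the miRNAs named here, miR-142a-5p and miR-223-3p are on the leukocyte list.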

How the data were processed

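Serum EV small RNA of 2 pooled libraries, 1 labelled control and 1 labelled iFIRKO, was analysed. Per the labels and the study's methods, RNA was isolated with a miRNeasy Micro Kit, made into libraries with a QIAseq miRNA Library Kit, sequenced on a NextSeq500 and analysed by the authors on the GeneGlobe Data Analysis Center. The aligner, the miRNA annotation and the use of molecular identifiers are not given in the sources used here. The deposited values are a normalized signal that sums to 99.3% and 99.1% of 1. For both libraries 100% of the values came out whole within 0.01 after multiplication by 1 constant, which was taken as the depth (3817902 and 2233498), and the lowest level was treated as fewer than 10 counts. Members and lists were chosen with earlier results of these data known.

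Ratios, Clopper-Pearson, Wilson and exact conditional 95% intervals and Fisher's exact test with Benjamini-Hochberg adjustment at 0.05 were computed with scipy 1.17.1 in Python 3.11.15, with no pseudocount, and TMM factors with edgeR 4.0.16 in R 4.3.3. Interval functions were tested on simulated data. The 1.5-fold threshold is that of the study. Named miRNAs were the members, miR-148a-3p, the marker lists, miRNAs sharing a seed, and the 3 nearest in ratio to each abundant arm. Alternatives were 1 CPM added, filters at a mean count of 10 and 100, a 2-fold threshold, the lowest level set to 10 counts, and 5 scalings.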

Additional observations from a re-analysis of the deposited data

How the results depend on the processing

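No paired analysis was possible because only 1 library was made for a group, and for the same reason no library could be left out. Equal totals and 1 CPM added left the members' ratios and arm balances within their counting intervals. No member and no miRNA of the seed families was at the lowest level. Setting that level to 10 counts, or leaving out miRNAs at it, could therefore not change the member ratios or seed sums.

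Scaling shifts all log2 ratios by a single factor. Under the median of ratios (a shift of -0.26) miR-21a-5p, miR-221-3p and miR-222-3p were at -0.17, -0.32 and -0.58, and under the reference miR-148a-3p (-0.22) at -0.12, -0.27 and -0.54. With TMM factors (-0.85) they were at -0.76, -0.91 and -1.17, miR-21a-3p at -0.85 and miR-222-5p at -0.38, and miR-221-5p turned to -0.081. Without the liver and erythroid lists miR-21a-5p was at 0.21 and miR-221-3p at 0.064, and 2 members were over 1.5-fold higher, miR-221-5p and miR-222-5p, as were 72.1% of all miRNAs. No member (0) was over 1.5-fold higher with TMM factors, the median of ratios or miR-148a-3p, against 21.0%, 52.2% and 54.2% of all miRNAs. None was over 2-fold higher on the deposited scale, against 43.0%. None was over 1.5-fold higher at a mean count of at least 100, against 34.5% of the 420 miRNAs kept. That filter leaves out the passenger arms, and with them miR-221-5p, the only member past 1.5-fold. With TMM factors 4 members were over 1.5-fold lower, as were 19.5% of all miRNAs.

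Of all miRNAs, 1225 were over 1.5-fold higher and 56 lower on the deposited scale. TMM factors gave 388 and 360, which lowered the higher share from 95.6% to 51.9%. At 2-fold, 794 were higher. The filter at a mean count of 100 kept 145 higher and 18 lower, and that at 10 kept 24 lower. Lower miRNAs numbered 111 under the median of ratios and 102 under miR-148a-3p. The arm ratio changed past 1.5-fold in 273 of 617 hairpins (44.2%) and past 2-fold in 140 (22.7%). Where both arms reached a mean count of 100, it changed past 1.5-fold in 17 of 72 (23.6%). Among the hairpins comparable with the members the share was higher, 38 of 59 (64.4%). These filters test fewer hairpins.

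The list medians with the median of ratios, miR-148a-3p and TMM were -0.78, -0.74 and -1.37 (endothelial), -0.69, -0.65 and -1.28 (smooth muscle), -1.13, -1.08 and -1.72 (erythroid), -0.40, -0.36 and -0.99 (leukocyte) and 0.19, 0.23 and -0.40 (liver), in that order. With TMM the mesenchymal stromal median was -0.40 and the adipocyte median -1.02. Depth limits the passenger arms most, since miR-221-5p rests on 47 counts in each library.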
